A study of Mus musculus with 6 samples.

Results

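Pericytes and vascular smooth muscle cells, together called mural cells, wrap the endothelium of blood vessels, and 10 of their genes are described here out of 41388 genes listed in the count files. The genes were chosen by symbol, and each symbol matched 1 Ensembl gene. Rgs5, Pdgfrb, Cspg4, Mcam and Notch3 encode surface receptors and signaling proteins used to recognize pericytes. Acta2, Tagln, Myh11, Cnn1 and Myl9 encode parts of the contractile apparatus of smooth muscle, which myofibroblasts and the myoepithelial cells of the mammary gland also express. The RNA-seq data came from 6 samples of sorted mammary tumor cells of FVB/N-TgN(MMTVPyVT)634Mul/J mice, in which the MMTV promoter, active mainly in mammary epithelium, drives polyoma middle T antigen. Of these, 3 samples were tumor-initiating cells (TICs), sorted as CD24+CD90+CD45- cells, and 3 samples were non-CD24+CD90+ tumor cells, the remaining CD45- cells. All mice were 12 weeks old, and 4 cell sorts were pooled for each sample, so that 12 mice stand behind each group. In the series description the second group lacks both markers, whereas the study's methods also place cells with a single marker in it, and its name here follows the methods. Antibodies to CD24, CD90 and CD45 defined the gates, and no marker of pericytes, fibroblasts or endothelial cells was used to remove such cells.

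Mural cells are recruited to new vessels by endothelial PDGF-B, which binds the receptor encoded by Pdgfrb, and Notch signals from the endothelium act through Notch3 to maintain vascular smooth muscle. In contractile cells, serum response factor and its cofactors act on Acta2, Tagln, Myh11, Cnn1 and Myl9 through CArG boxes. Calcium-dependent phosphorylation of the myosin light chain drives contraction there. Rgs5 shortens G protein signals from vasoactive receptors and is a widely used marker of pericytes.

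Promoter windows from RefSeq on GRCm38.p6, from 250 bases before to 50 after the annotated start, were found for 7 of the 10 genes. The windows of Rgs5, Acta2 and Myl9 are shown 5' to 3' because Rgs5 rose in TICs and the others are the most abundant contractile genes. Capitals mark CArG boxes, with at most 1 G or C allowed among the central A and T bases. The Rgs5 window is on the plus strand at chr1:169655251-169655550, that of Acta2 on the minus strand at chr19:34255324-34255623 and that of Myl9 on the plus strand at chr2:156775214-156775513.
Rgs5: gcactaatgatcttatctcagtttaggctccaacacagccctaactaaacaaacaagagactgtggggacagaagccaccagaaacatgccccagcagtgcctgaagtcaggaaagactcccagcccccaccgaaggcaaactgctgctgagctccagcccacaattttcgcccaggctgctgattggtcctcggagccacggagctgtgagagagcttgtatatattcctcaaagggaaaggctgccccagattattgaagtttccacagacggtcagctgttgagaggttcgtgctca
Acta2: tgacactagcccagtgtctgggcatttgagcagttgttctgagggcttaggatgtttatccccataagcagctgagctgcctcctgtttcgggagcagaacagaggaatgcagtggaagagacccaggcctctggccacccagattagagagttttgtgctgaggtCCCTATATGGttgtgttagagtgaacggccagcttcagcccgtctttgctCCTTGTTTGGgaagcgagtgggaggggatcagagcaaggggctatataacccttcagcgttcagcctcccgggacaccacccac
Myl9: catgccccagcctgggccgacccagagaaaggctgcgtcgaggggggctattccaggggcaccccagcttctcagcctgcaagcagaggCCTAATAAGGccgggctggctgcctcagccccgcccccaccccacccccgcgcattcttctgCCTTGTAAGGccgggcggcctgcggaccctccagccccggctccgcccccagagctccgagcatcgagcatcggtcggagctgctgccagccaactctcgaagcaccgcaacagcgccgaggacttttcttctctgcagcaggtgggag
Acta2 held 2 CArG boxes with 1 G or C in the centre, at positions -84 and -34 from the annotated start. A TATAA sequence lay at position 10 of this window, after that start, so these positions hold for the annotated start only. Myl9 held 1 perfect CArG box at -161 and 1 with a single G or C at -99. Neither form was present in the windows of Rgs5, Cspg4, Mcam, Notch3 and Cnn1. Among 32851 RefSeq promoter windows, 1.63% held a perfect CArG box and 8.5% held the looser form. The motif reads the same on both strands, and a match of letters is a description of the window only.

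Total counts ranged from 6781239 to 8450038 in the non-CD24+CD90+ group and from 8114933 to 9100552 in TICs, so that 3 counts corresponded to 0.33 to 0.442 CPM, the usual scaling of counts to the library total. Values are CPM after TMM scaling, which adjusts library sizes to the bulk of genes. Pearson's r of log2 CPM across genes ranged from 0.683 to 0.807 over the 15 pairs of samples, and TIC replicate 3 had the lowest mean r with the others, at 0.701. Where 20 to 60 counts were predicted for a gene from the rest of its group, the share of such genes at 0 was 8.24% to 24.1%, the most in TIC replicate 3. Mitochondrial genes took 1.93% to 2.91% of counts in non-CD24+CD90+ tumor cells and 3.21% to 5.01% in TICs. Fold changes were tested with edgeR's exactTest over 12192 genes, with Benjamini-Hochberg adjusted p-values and a threshold of 0.1. For 1 gene alone, the smallest p that an exact permutation test allows with 3 samples in each group is 0.1.

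Rgs5 was the only one of the 10 genes to pass the test. It rose 2.74-fold in TICs, while 1.36% of all genes were called higher and 0.189% lower. edgeR's quasi-likelihood test also called Rgs5 alone among the 10, beside 0.402% of all genes higher and 0.00820% lower, and so did DESeq2, beside 1.95% higher and 0.633% lower. None of the 10 genes was called lower by these 3 tests. At an unadjusted p under 0.05 in exactTest, 4 of the 10 were higher and 0 were lower. Of all 12192 genes, 578 were higher and 379 lower at that threshold. In Rgs5, Pdgfrb, Cspg4 and Tagln all TIC samples exceeded all samples of the other group, and in the other 6 genes the groups overlapped. The same complete separation was found in 7.69% of all genes with TICs above and in 7.55% with TICs below. The median log2 fold change was 0.96 for the 5 pericyte genes, -0.01 for the 5 contractile genes and -0.01 for all genes tested. In such bulk samples, more cells of a type and more RNA per cell cannot be told apart.

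**Figure D1:**
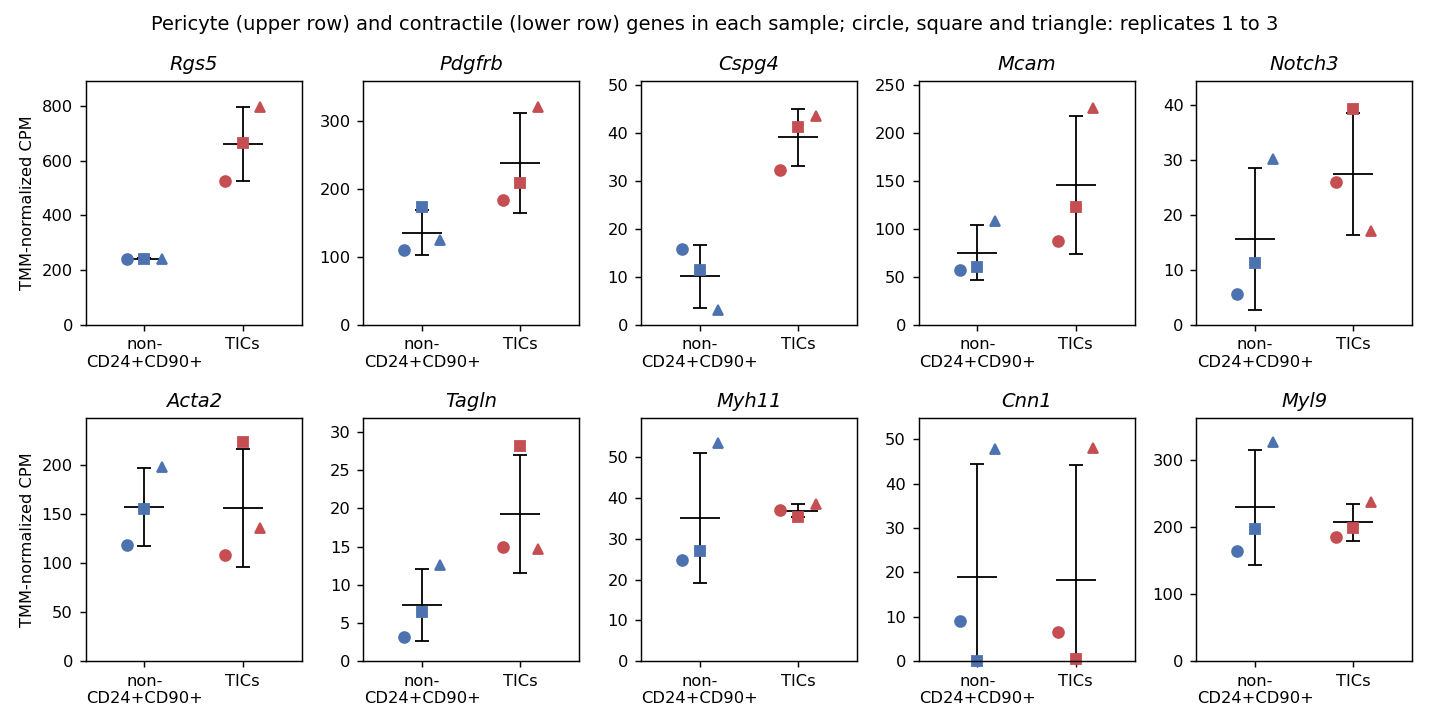
TMM-normalized CPM (vertical axes, each starting at 0) of the 10 genes in 3 non-CD24+CD90+ samples (blue) and 3 TIC samples (red), with black lines for the mean and SD. Rgs5 sits at 242 CPM in all blue samples and between 526 and 797 CPM in the red ones, whereas Acta2, Myh11, Cnn1 and Myl9 overlap.

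Rgs5 (ENSMUSG00000026678, chromosome 1 of GRCm38, 169655501 to 169695813) had 1667, 2138 and 1699 reads in the non-CD24+CD90+ group and 4803, 5723 and 6062 reads in TICs. After scaling these were 242.3, 241.7 and 242.1 CPM against 525.8, 664.6 and 796.8 CPM. The non-CD24+CD90+ samples agreed within an SD of 0.34 CPM, closer than the 5.65 CPM that counting error alone gives at this depth. The groups were far apart, at 242 ± 0.34 CPM and 662 ± 136 CPM (SD, n = 3). The log2 fold change was 1.45 with a standard error of 0.28, and the adjusted p-value of edgeR's exactTest was 0.00047. Rgs5 stood at rank 13 of the 12192 genes by p-value. The quasi-likelihood test gave an adjusted p-value of 0.036 and DESeq2 3.5e-08. Leaving out any 1 sample gave log2 fold changes from 1.32 to 1.61 for Rgs5, with adjusted p-values from 2.6e-05 to 0.03.

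Pdgfrb (ENSMUSG00000024620, chromosome 18), the receptor for PDGF-B, lay at 109.6, 172.9 and 124.2 CPM in the non-CD24+CD90+ samples and at 184.1, 209.5 and 321.6 CPM in TICs. The lowest TIC sample was only 11.2 CPM above the highest of the other group, and TIC replicate 3 was set apart on the upper side. The log2 fold change of 0.81 (standard error 0.33) had an unadjusted p of 0.015 and an adjusted p of 0.36 in exactTest, which did not pass. Cspg4 (ENSMUSG00000032911, chromosome 9, 56865033 to 56899870), the proteoglycan NG2 of pericytes and of other precursor cells, lay at 15.7, 11.4 and 2.99 CPM against 32.3, 41.1 and 43.5 CPM. Here the spread was among non-CD24+CD90+ samples, with a 5.25-fold range, and TICs differed by 1.35-fold at most. Its log2 fold change was the largest of the 10 genes, at 1.96, but the standard error was 0.72 and the adjusted p of exactTest was 0.30. Cspg4 rested on 21 to 108 counts per sample in the lower group.

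Mcam (ENSMUSG00000032135, chromosome 9, 44134469 to 44142727) encodes CD146, an adhesion molecule of pericytes and endothelial cells. It lay at 56.7, 59.9 and 108 CPM in the non-CD24+CD90+ samples and at 87.3, 122 and 226 CPM in TICs. Replicate 3 was the highest sample in either group, and the groups overlapped at TIC replicate 1. The log2 fold change of 0.96 with a standard error of 0.41 did not pass exactTest, at an adjusted p of 0.44, and was 0.50 without TIC replicate 3. Notch3 (ENSMUSG00000038146, chromosome 17, 32120820 to 32166852), the Notch receptor of vascular smooth muscle, had 5.52, 11.3 and 30.2 CPM against 26.1, 39.3 and 17.1 CPM. Its groups overlapped widely, with a log2 fold change of 0.81, a standard error of 0.79 and an adjusted p of 1 in exactTest. Leaving out any 1 sample gave 0.42 to 1.71, the highest without non-CD24+CD90+ replicate 3. Of its 8089 exon bases, 488 lie opposite exons of Gm17276 in GENCODE M21, which had 0 to 20 counts per sample.

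Among the contractile genes, Acta2 (ENSMUSG00000035783, chromosome 19, 34241090 to 34255590) encodes smooth muscle actin. It lay at 118, 155 and 198 CPM in the non-CD24+CD90+ samples and at 108, 223 and 136 CPM in TICs, so that TICs held both the lowest and the highest sample. The means of 157 ± 39.8 and 156 ± 60 CPM (SD, n = 3) gave a log2 fold change of -0.01 with a standard error of 0.35. A range of 1.96 standard errors around it runs from 0.614-fold to 1.6-fold. This range is not a detection limit of exactTest. Pdgfrb, with a standard error of 0.33, was not called at 1.76-fold. The smallest difference in Acta2 that would be called was not tested. The sign of the Acta2 value was positive with RLE size factors, at 0.02. Myl9 (ENSMUSG00000067818, chromosome 2, 156775420 to 156781658), the regulatory light chain of smooth muscle myosin, lay at 164, 197 and 327 CPM against 185, 200 and 238 CPM. All TIC samples fell inside the range of the other group, and its log2 fold change of -0.15 with a standard error of 0.33 did not pass exactTest, at an adjusted p of 1. Its range of 1.96 standard errors runs from 0.578-fold to 1.41-fold.

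Myh11 (ENSMUSG00000018830, chromosome 16, 14194535 to 14291372), the heavy chain of smooth muscle myosin, had 24.9, 26.9 and 53.4 CPM in the non-CD24+CD90+ samples and 36.9, 35.2 and 38.4 CPM in TICs. TICs were within 1.09-fold of each other and lay between the second and the highest sample of the other group. The log2 fold change was 0.07 with a standard error of 0.54. Cnn1 (ENSMUSG00000001349, chromosome 9, 22099216 to 22109630), the actin-binding calponin of smooth muscle, varied most. It had 63, 0 and 336 counts in the non-CD24+CD90+ samples and 60, 5 and 365 counts in TICs, with replicate 3 at 47.9 CPM in one group and 48.0 CPM in the other. The 0 counts in replicate 2 allow a level of up to 0.355 CPM by counting error. The log2 fold change of Cnn1 was -0.05 with a standard error of 1.44, and it ranged from -2.39 to 2.01 with single samples left out.

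Tagln (ENSMUSG00000032085, chromosome 9, 45929619 to 45936058), the actin-binding protein SM22, was the contractile gene whose groups did not overlap. It lay at 3.2, 6.44 and 12.5 CPM against 15, 28.2 and 14.7 CPM, and the lowest TIC sample exceeded the highest of the other group by 2.18 CPM. The log2 fold change of 1.38 had a standard error of 0.97 and an adjusted p of 0.93 in exactTest, and was 1.999 without non-CD24+CD90+ replicate 3. Of its 1988 exon bases, 1241 lie opposite exons of Gm48529 and 108 opposite exons of Pcsk7. The strand setting of the counting was not given, so reads of these genes cannot be told apart from those of Tagln. Pcsk7 had 0 to 133 counts per sample, and no count of Gm48529 is given here. The part of either gene in the count of Tagln was not tested.

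All 5 contractile genes had their highest value among non-CD24+CD90+ samples in replicate 3, as did Mcam and Notch3 among the pericyte genes. The 6 myoepithelial markers Krt5, Krt14, Krt17, Trp63, Oxtr and Col17a1 were also highest there, with a summed level of 1007 CPM against 453 and 543 CPM in the other samples of the group. Without this sample, TICs lay above the rest in 7 of the 10 genes in place of 4, and in 11.6% of all genes tested. In that setting the log2 fold changes of Acta2 and Myl9 were 0.19 and 0.20, with adjusted p-values of 1 in exactTest. The 17 further contractile genes described below summed to 2437, 2107 and 2337 CPM in non-CD24+CD90+ replicates 1 to 3. Among them Tpm1, Csrp1, Itga8 and Sncg were highest in replicate 3, and the rest of those tested were not. The share of all genes highest in that sample is not given here. The part of myoepithelial RNA in the values of the 10 genes was not tested.

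The level of Rgs5 relative to the other genes within a sample gives a comparison that does not depend on library scaling. Rgs5 exceeded Acta2 by 1.03, 0.64 and 0.29 on the log2 scale in non-CD24+CD90+ tumor cells and by 2.28, 1.57 and 2.55 in TICs. It stood at 0.56, 0.29 and -0.44 relative to Myl9 against 1.51, 1.73 and 1.74 in TICs. In 4 of 9 such ratios, those to Pdgfrb, Acta2, Myh11 and Myl9, every TIC sample was above every other sample. The exact permutation test gave p = 0.1 for each of these 4, the smallest it allows, and 0.23 after adjustment over the 9 ratios. All 9 ratios share Rgs5, which had already been called higher. A gap against genes that changed less largely follows from that call, so these ratios are not separate support for it. The ratios to Cspg4, Mcam, Notch3, Tagln and Cnn1 overlapped between groups. For Tagln the mean ratio was 5.19 in non-CD24+CD90+ tumor cells and 5.13 in TICs.

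**Figure D2:**
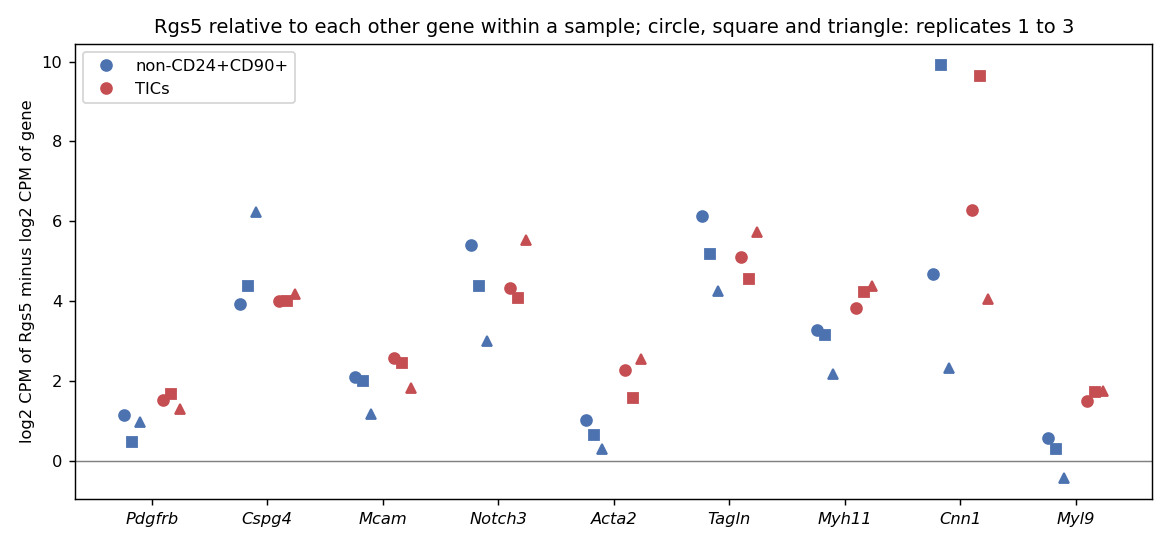
Log2 CPM of Rgs5 minus log2 CPM of each other gene (vertical axis, prior count of 2) in each sample of non-CD24+CD90+ tumor cells (blue) and TICs (red). For Pdgfrb, Acta2, Myh11 and Myl9 all red points are above all blue points, and for the remaining 5 genes the colors mix.

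Divided by exon length, Myl9 was the most abundant of the 10 genes in either group, with means of 198 and 179 CPM per kilobase of exon. In non-CD24+CD90+ tumor cells Acta2 followed at 71.5 and Rgs5 at 53.2 CPM per kilobase. In TICs Rgs5 came before Acta2, at 146 and 71 CPM per kilobase, and their ranges did not overlap. In non-CD24+CD90+ tumor cells the ranges nearly touched, with the lowest Acta2 value at 53.82 and the highest Rgs5 value at 53.31 CPM per kilobase. Their order there is not resolved in replicate 1, which held both values. The Rgs5 range in TICs, 116 to 175, overlapped that of Myl9, 159 to 205. Pdgfrb and Mcam did not differ beyond their spread, at 24.8 and 22.4 CPM per kilobase in non-CD24+CD90+ tumor cells and 43.5 and 43.3 in TICs. The lower means, from 0.841 to 9.72 CPM per kilobase, belonged to the other 5 genes. Their order was Cnn1, Myh11, Tagln, Notch3 and Cspg4 in non-CD24+CD90+ tumor cells and Tagln, Cnn1, Myh11, Notch3 and Cspg4 in TICs, and the ranges of neighbors in each order overlapped. Cspg4 had the lowest mean of the 10 genes in both groups.

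Other genes of these cells were then read from lists chosen by function. Of 13 further pericyte genes, 12 had a positive log2 fold change, beside 6061 of all 12192 genes. The median of the 13 was 1.14. In 10 of the 13 the groups overlapped, and in 3 all TIC samples lay above, a separation found in 7.69% of all genes. Only 1 of the 13 passed the test. That gene was Gja4, the gap junction protein connexin 37 of vascular cells, with 0, 2 and 4 counts in the non-CD24+CD90+ samples and 31, 60 and 362 counts in TICs. It passed the filter on low counts through TICs alone, its adjusted p was 0.055 in exactTest, and 0.25 in the quasi-likelihood test. Abcc9 and Higd1b, both common pericyte markers, lay at 4.51, 20.3 and 4.13 against 7.99, 36.2 and 75.8 CPM and at 16.4, 2.035 and 17.4 against 55.2, 62.25 and 22.6 CPM. Neither passed, with adjusted p-values of 0.46 and 0.34 in exactTest. Cox4i2 was the only gene of this list with a negative log2 fold change, -0.14, at 0 to 34 counts per sample.

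Of 17 further contractile genes, 15 passed the filter, with a median log2 fold change of 0.31, and none was called by exactTest, the quasi-likelihood test or DESeq2. At an unadjusted p under 0.05, 2 were higher and 1 was lower. The lower one was Csrp1, a LIM protein of smooth muscle, at 134, 167 and 188 CPM in the non-CD24+CD90+ samples and 77.7, 104 and 83.9 CPM in TICs. All its TIC samples lay below the other group, and the log2 fold change was -0.88 with a standard error of 0.32 and an adjusted p of 0.24 in exactTest. Cald1, the actin-binding caldesmon, lay at 907, 661 and 717 CPM against 703, 1147 and 2438 CPM, and TIC replicate 3 alone was more than 2 times above every sample of the other group. Of the regulators of these genes, Srf had 94.2, 110 and 99.7 CPM against 66.1, 53.1 and 87.3 CPM, all TICs below, with a log2 fold change of -0.56 and an adjusted p of 0.88. Myocd, the muscle-specific cofactor of Srf, had 0 to 6 counts per sample and was not tested. Klf4, a repressor of contractile genes in smooth muscle, lay at 175, 415 and 564 CPM in TICs and at 209, 168 and 138 CPM in the other group. Of the 6 regulators 5 were tested and exactTest called none, with an adjusted p of 0.15 for Klf4 (DESeq2 0.042).

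**Figure D3:**
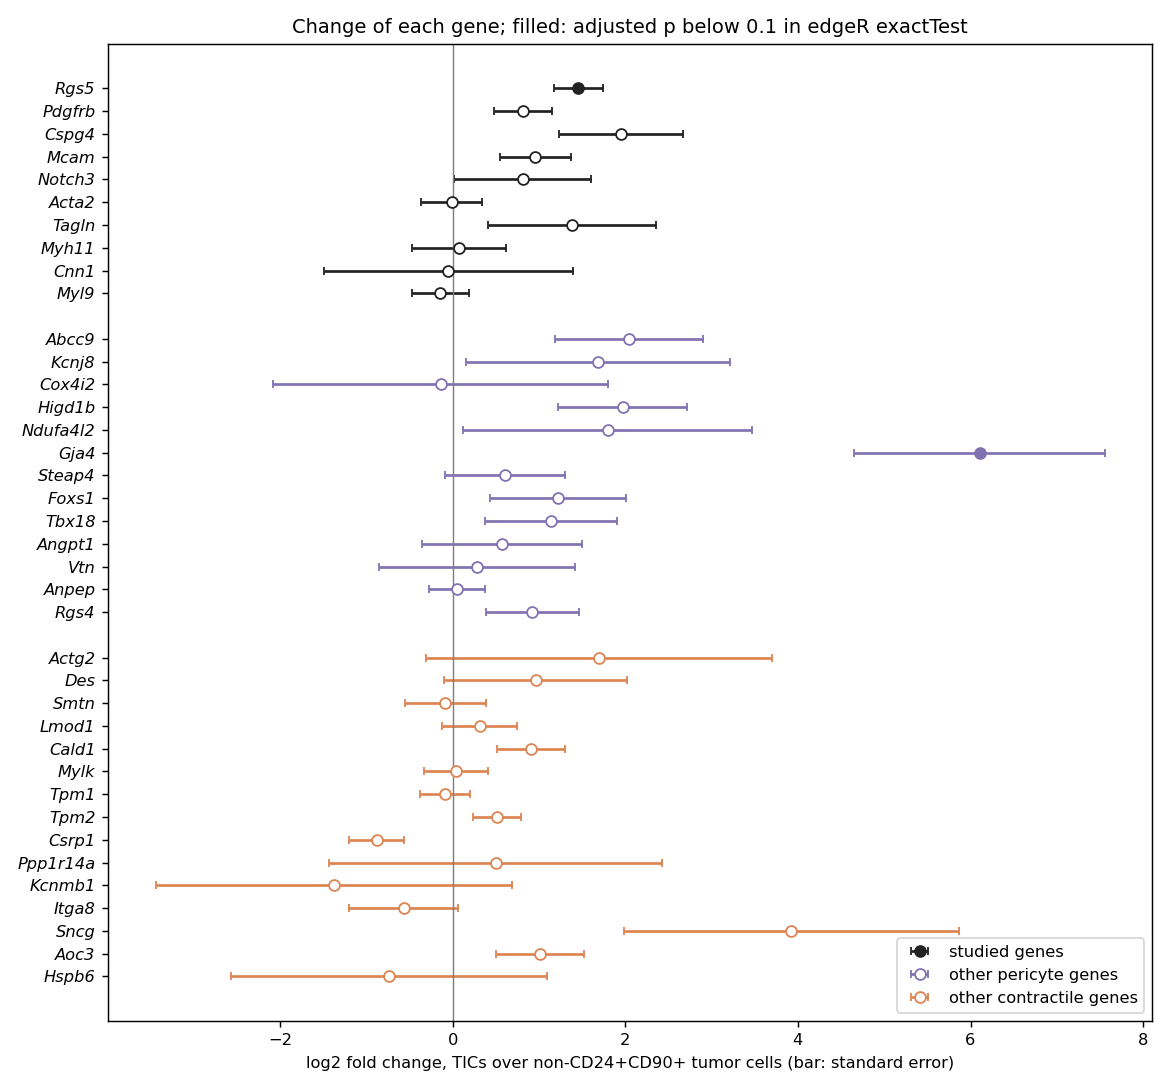
Log2 fold change of TICs over non-CD24+CD90+ tumor cells (horizontal axis) with its standard error for the 10 studied genes, 13 further pericyte genes and 15 further contractile genes, filled where the adjusted p of exactTest was below 0.1. Rgs5 and Gja4 are filled, and 12 of the 13 further pericyte genes lie to the right of 0, though in 10 of the 13 the groups overlapped.

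Of 17 genes of PDGF and Notch signaling, 14 had a positive log2 fold change, with a median of 0.54, and none was called by the same 3 tests. One had an unadjusted p under 0.05. It was Jag1, a Notch ligand, at 61.3, 57.5 and 66.5 CPM against 123, 135 and 81.4 CPM, with all TICs above and an adjusted p of 0.37 in exactTest. Pdgfb, the ligand of the Pdgfrb product, was low at 0.872, 4.52 and 4.27 CPM against 3.18, 13.9 and 12.7 CPM. The receptor Notch1 had the smallest p-value in the negative direction, with a log2 fold change of -0.91 and an unadjusted p of 0.57.

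Markers of other cell types were read in the same samples. Of 9 fibroblast markers, 5 were called higher (Dcn, Dpt, Col3a1, Col1a1 and Col1a2), none lower, and their summed level was 2780 to 3168 CPM in non-CD24+CD90+ tumor cells and 7437 to 10780 CPM in TICs. All 10 endothelial markers had a positive log2 fold change and none was called, with sums of 204.5 to 297.6 CPM against 278.4 to 1378 CPM. The sums of fibroblast and endothelial markers and the level of Rgs5 were in TICs lowest in replicate 1 and highest in replicate 3. The 13 further pericyte genes did not share this order, with sums of 529.2, 686.1 and 503.7 CPM in TIC replicates 1 to 3. The 5 contractile genes summed to 352, 486.8 and 475 CPM there. The 8 luminal markers, among them Epcam and Krt8, had sums of 5907 to 6265 CPM in non-CD24+CD90+ tumor cells and 3895 to 4600 CPM in TICs. None of the 8 was called, and in 4 of them the groups overlapped. Krt18 was the largest part of these sums, with means of 2646 and 1639 CPM. The sums of the myoepithelial markers overlapped, at 453 to 1007 and 366 to 596 CPM. Of 7 leukocyte markers, Adgre1 and Cd3e had 0 counts in all samples and Lyz2 was called higher in TICs. Cd68 and Csf1r had negative log2 fold changes, -0.31 and -1.68, and were not called. Ptprc, which encodes CD45, had 33 counts in non-CD24+CD90+ replicate 1 and 0 in every other sample. The adipocyte markers Adipoq and Plin1 were at 0 in all samples, whereas Fabp4, which capillary endothelium also expresses, was called higher. Of 5 skeletal muscle markers only Acta1 passed the filter, and it was not called. The part of fibroblast, endothelial or other RNA in the values of Rgs5 and the other genes was not tested.

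**Figure D4:**
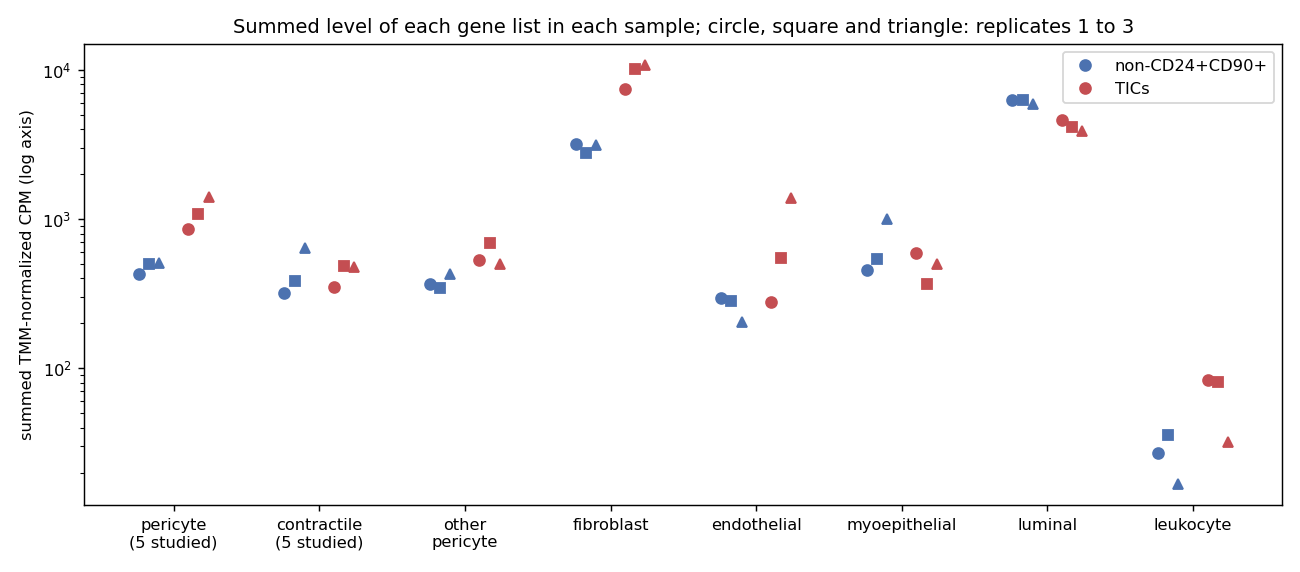
Summed TMM-normalized CPM of 8 of the gene lists (vertical log axis) in each sample of non-CD24+CD90+ tumor cells (blue) and TICs (red). The 5 pericyte genes sum to between 430 and 508 CPM in blue and 856 and 1405 CPM in red samples. Rgs5 alone gives 242 CPM of the former and 526 to 797 CPM of the latter, and Mcam and Notch3 overlap between groups. The fibroblast markers separate likewise, and the 5 contractile genes overlap.

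Among 8733 genes with a mean of at least 10 CPM, the 3 most like Rgs5 over the 6 samples were Pard3b, Fbln1 and Nrp1. Pearson's r of log2 CPM was 0.997, 0.995 and 0.994, and Spearman's rho 0.829, 0.829 and 1. Each of the 3 was called higher in TICs, and r over 6 samples in separate groups mainly reflects the gap between groups. The 3 genes most like Acta2 were Shprh, Slc35e2 and Spopl, with r of 0.993, 0.984 and 0.976 and rho of 1 for each. They share with Acta2 the peak in TIC replicate 2 and overlap between groups. These genes were picked as the highest of many coefficients, which carry no test.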

How the data were processed

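RNA-seq covered 6 samples (3 TIC, 3 non-CD24+CD90+), each library made from 120 ng of RNA. Per the labels and the study's methods, trimming by the authors used Trimmomatic 0.32, alignment to GRCm38 used STAR 2.4.0, multiply mapped reads were dropped with SAMtools 1.1 and gene counts came from HTSeq. Deposited values are raw counts without normalization for 41388 Ensembl genes. The HTSeq version, strand setting and annotation release are not given in the sources used here. Actg1 had 0 to 11 counts per sample, for which the cause was not tested.

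From the counts on, the filter kept the 12192 genes above 1 CPM in 3 or more samples. The study's methods name edgeR's exactTest after a CPM filter, with no CPM value, and Benjamini-Hochberg adjustment. TMM factors and tagwise dispersions were chosen here, in edgeR 4.0.16 under R 4.3.3. Adjustment was over all genes kept, with a threshold of 0.1. Standard errors came from the negative binomial fit. The common dispersion was 0.678. Group labels came from the sample descriptions, replicate numbers from sample order, and no label pairs the samples, which were tested as unpaired. The study's supplement speaks of 12 mice in total, and whether the groups share mice is not stated. Per the study's text each sample pooled tumors of 4 mice, and p-values measure the spread between these pools. Symbols, positions and exon lengths came from GENCODE M21 on GRCm38, with symbols for 40340 genes.

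Alternatives were edgeR's quasi-likelihood test, DESeq2 1.42.0, scaling by RLE or by library size, trended dispersions, other filters, a threshold of 0.05 and each sample left out. The scripts were tested on simulated data. The genes and lists were chosen with earlier results of these data known. Named genes were the 10 studied, all called genes of each list with its smallest p in each direction, and the 3 genes most like Rgs5 and Acta2. Abcc9, Higd1b, Pdgfb, Myocd and the genes opposite Notch3 and Tagln were named after their values were seen. Intervals cover counting error only where stated. The result of 1 further marker list is not reported here.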

Additional observations from a re-analysis of the deposited data

How the results depend on the processing

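Rgs5 was called higher in all 13 alternative fits, and no other of the 10 genes was called in any. exactTest called 166 genes higher and 23 lower over the whole table. The number higher was 49 with the quasi-likelihood test, 108 without a filter and 109 at an adjusted p below 0.05, and the number lower was 1, 4 and 7 in these settings, 75 with DESeq2 and 9 with a filter on the mean. With single samples left out, 69 to 225 genes were higher and 2 to 98 lower, and the groups did not overlap in 4 to 7 of the 10 genes with TICs above. The further pericyte genes had 1 call (Gja4) and 0 with the quasi-likelihood test, without a filter and at 0.05. The regulators of contractile genes had 1 call (Klf4) with DESeq2 and 1 with trended dispersions. With single samples left out, the further pericyte genes, contractile genes and regulators each had 0 to 1 calls. The single calls came without TIC replicate 1, where they were Abcc9, Cald1 and Klf4, and Gja4 failed the filter in each fit without a TIC sample.

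The values near 0 changed sign. Acta2 had a log2 fold change of 0.0204 with DESeq2, 0.0204 with RLE size factors and 0.0011 without a filter, and -0.36 to 0.21 with single samples left out. Over the same fits Cnn1 ranged from -2.39 to 2.01, Myh11 from -0.12 to 0.51 and Myl9 from -0.33 to 0.20. The cause was not tested. Libraries left out leave 2 samples against 3, and at these depths Cnn1 at 0 to 5 counts in a sample is not resolved.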

Other observations

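The nonmuscle relatives of the contractile genes were read in the same samples. Actb, the cytoskeletal actin, lay at 6703, 5774 and 6290 CPM in the non-CD24+CD90+ samples and at 4975, 5375 and 3707 CPM in TICs, with all TICs below and an adjusted p of 0.88 in edgeR's exactTest. Cnn3, the widely expressed calponin, lay at 40.1, 88.8 and 60.1 CPM against 103, 94.4 and 149 CPM, with all TICs above and an adjusted p of 0.49. Of the 8 relatives tested, none was called by exactTest, the quasi-likelihood test or DESeq2, 4 had a positive and 4 a negative log2 fold change, and 1 had an unadjusted p under 0.05.

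Of 10 genes that carry contraction signals from receptors to myosin, 8 had a positive log2 fold change, with a median of 0.39. None was called by these 3 tests, and 1 had an unadjusted p under 0.05. It was S1pr3, a receptor for sphingosine 1-phosphate, at 43.8, 12.7 and 13.4 CPM against 68.3, 84.1 and 29.7 CPM (adjusted p = 0.48 in exactTest). Gna11, a G protein subunit, had the smallest p in the negative direction, with a log2 fold change of -0.24 and an adjusted p of 1.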
